A study of Mus musculus with 12 samples.

Results

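The adrenergic receptors described here are the 7 genes Adra1a, Adra1b, Adra1d, Adra2a, Adra2b, Adra2c and Adrb1, out of 47729 genes with deposited counts, and they were found by matching their symbols to the Ensembl identifiers of the count table through GENCODE M21. The counts came from amygdala tissue, taken from both hemispheres of 12 female mice of the inbred C57/BL6 strain, with 1 RNA-seq library per mouse and no treatment named. The labels place 3 mice in a less anxious, 4 in an anxious and 4 in a more anxious group, and mouse 5 has no group. Each mouse also carries 7 behavior measures, namely time and entries on an elevated plus maze, time and distance in the lit side of a light/dark box, and a social interaction ratio over 3 periods, of which mouse 4 lacks the first. The groups were cut by the study from the second principal component (PC2) of these same expression data, so a test of a receptor between groups is not independent of how the groups were made.

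Adrenergic receptors are G protein-coupled receptors for noradrenaline and adrenaline. In the amygdala the noradrenaline comes mostly from axons of the locus coeruleus in the brainstem, and its release rises with arousal and threat. The alpha 1 receptors act through Gq and phospholipase C to release calcium, the alpha 2 receptors act through Gi to lower cyclic AMP and often restrain transmitter release from the terminal that carries them, and the beta 1 receptor acts through Gs to raise cyclic AMP.

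The estimated counts of a library summed to between 31745630 and 45142355 in the 11 grouped mice. Levels are given in CPM, a library's counts relative to its total, scaled between mice with TMM factors. All 7 receptors had at least 10 reads in total over the 11 mice and so entered the tests of 26963 genes. The pooled libraries of all mice were read in 1 sequencing run. The amygdala markers Rspo2, Prkcd, Tac2 and Cyp26b1 had reads in every grouped mouse, with a summed level of 49.9 to 122 CPM. Among markers of noradrenergic cell bodies, Phox2a had at most 1 read in each of the 11 mice and the noradrenaline transporter Slc6a2 at most 7, whereas Th had 36 to 123 and Dbh 10 to 255 reads. The summed level of 5 striatal markers ran from 85.4 to 418 CPM.

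Compared per length of annotated exon, Adra2a had the highest mean level with 5.23 ± 1.09 CPM per kb (SD, n = 11). It was followed by Adra2c with 4.66 ± 0.684 CPM per kb and Adrb1 with 4.32 ± 0.761 CPM per kb. Adra1d reached 2.39 ± 1.11, Adra1b 1.69 ± 0.333, Adra1a 0.406 ± 0.0869 and Adra2b 0.103 ± 0.0619 CPM per kb. The ranges over mice of Adra2a, Adra2c, Adrb1, Adra1d and Adra1b overlapped with those of their neighbors in this order, and the order of Adra2a above Adra2c held in 8 of 11 mice. Adra1b lay above Adra1a, and Adra1a above Adra2b, in 11 of 11 mice with no overlap of the ranges. The sum of the alpha 2 receptors made up 53.2 ± 3.30% of the summed level per kb of all 7, the alpha 1 receptors 23.7 ± 4.23% and Adrb1 23.1 ± 3.74%. With coding length in place of exon length, Adra1b (3.71 CPM per kb) moved above Adra1d (2.69 CPM per kb), and the other places in the order stayed as they were.

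**Figure D1:**
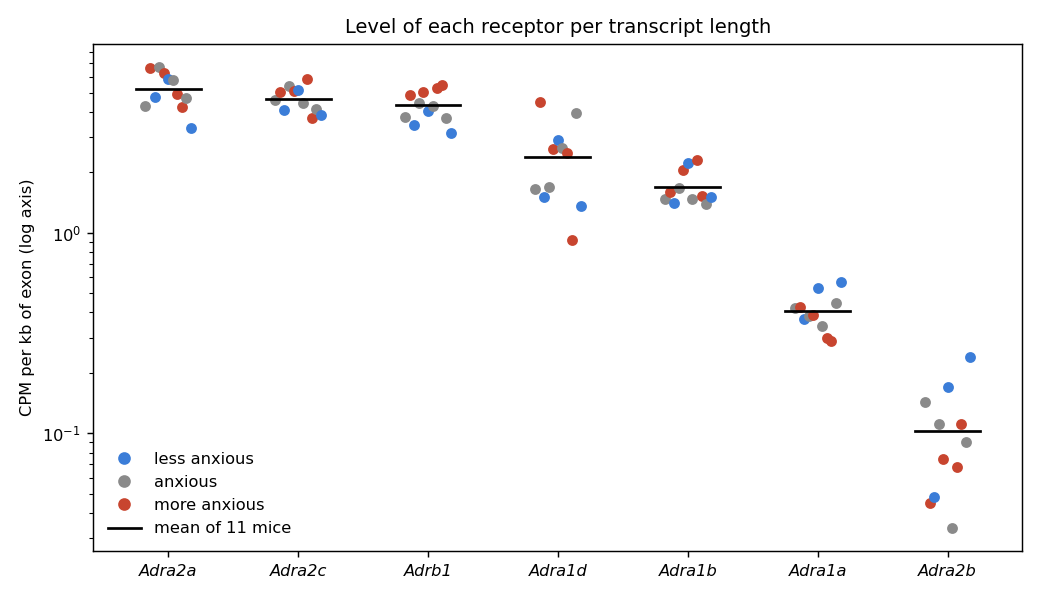
Level of each receptor in the 11 grouped mice, in CPM per kb of annotated exon on a log axis; points are mice colored by anxiety group and black lines are means. Adra2a, Adra2c and Adrb1 form an overlapping upper set with means of 4.32 to 5.23, and Adra1a and Adra2b lie apart below, at 0.406 and 0.103.

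Adrb1, on chromosome 19 (ENSMUSG00000035283, GRCm38, chr19:56722199-56733113, plus strand), encodes the beta 1 receptor, the Gs-coupled subtype that beta blockers target in the heart. It was at 10.6, 11.7 and 13.7 CPM in the 3 less anxious mice, at 12.6, 12.8, 14.5 and 15.0 CPM in the 4 anxious mice and at 16.5, 17.0, 17.8 and 18.4 CPM in the 4 more anxious mice. Every more anxious mouse was above every mouse of the other groups, in 12 of 12 pairs with less anxious mice and 16 of 16 pairs with anxious mice, while the less anxious and anxious mice overlapped. Of all genes tested, 4.57% were likewise higher in more anxious than in less anxious mice without overlap, and Adrb1 was the only receptor among the 7 of which this was true. The share of all genes that also separated more anxious from anxious mice was not counted. The 16 of 16 pairs therefore have no background to be read against. The group means were 12.0 ± 1.57, 13.7 ± 1.21 and 17.4 ± 0.856 CPM (SD, n = 3, 4 and 4). In bulk tissue, fewer cells of a type and less RNA per cell cannot be told apart.

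With edgeR's quasi-likelihood test and the first principal component (PC1) as covariate, the estimated log2 change of Adrb1 from less anxious to more anxious mice was 0.52 (SE 0.12), a fold of 1.43. The unadjusted p was 0.000803, which ranked Adrb1 among the lowest 0.464% of p-values, but the adjusted p over all genes was 0.173 in edgeR and did not pass the threshold of 0.05. The step from anxious to more anxious mice was 0.35 (SE 0.11, edgeR unadjusted p = 0.00632, adjusted p = 1), and that from less anxious to anxious mice 0.16 (SE 0.12, edgeR unadjusted p = 0.202, adjusted p = 0.988). This last change was 0.25 without mouse 7 and 0.09 without mouse 12. These comparisons share mice, so they are not separate evidence. DESeq2, the tool the study used, called Adrb1 with the likelihood ratio test over the 3 groups (adjusted p = 0.0101) and between more and less anxious mice (Wald test, adjusted p = 0.00613), with a log2 change of 0.51. These DESeq2 tests called 1.36% and 1.63% of the genes that had an adjusted p, and no other receptor was among them, where Adra2b had no adjusted p in the test over the 3 groups. The study lists Adrb1 among its changed genes from these same mice, so the call is not independent evidence.

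The sequence before the start of Adrb1 is shown because it is the member whose groups separated, and that of Adra2b because it is the member with the lowest level. RefSeq promoter windows of the GRCm38.p6 build matched 5 of the 7 members, with 6 windows. The 250 bases before the RefSeq start are given from 5′ to 3′ on the plus strand, at chr19:56721867-56722116 for Adrb1 and chr2:127362929-127363178 for Adra2b, both of them outside the gene as GENCODE M21 annotates it. Capitals mark matches, on either strand, to 4 motifs. The half-site of the cyclic AMP response element was searched as TGACG, the box bound by Sp1 as GGGCGG, the TATA box as TATAAA and the box bound by NF-Y as CCAAT.
Adrb1: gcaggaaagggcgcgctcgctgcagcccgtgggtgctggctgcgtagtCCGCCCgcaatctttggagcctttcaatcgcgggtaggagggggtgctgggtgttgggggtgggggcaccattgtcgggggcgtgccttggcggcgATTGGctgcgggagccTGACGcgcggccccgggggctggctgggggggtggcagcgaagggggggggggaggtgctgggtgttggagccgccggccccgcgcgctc
Adra2b: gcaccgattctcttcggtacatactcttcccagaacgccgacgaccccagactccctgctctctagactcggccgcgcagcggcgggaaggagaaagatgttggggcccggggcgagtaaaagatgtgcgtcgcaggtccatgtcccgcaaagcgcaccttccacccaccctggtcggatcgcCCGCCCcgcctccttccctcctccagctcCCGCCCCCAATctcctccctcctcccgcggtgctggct
In the Adrb1 window TGACG began 90 bases before the start, and 17.8% of all 32851 windows of this length held those letters on either strand. The Adra2a window, which is not shown, also held TGACG, beginning 69 bases before its start. GGGCGG was found once in the Adrb1 window and at 2 places in that of Adra2b (32.7% of all windows), CCAAT once in each (33.8%) and TATAAA in neither (12.4%); the CCAAT of Adra2b directly follows one of its GGGCGG matches, so the capitals run together there. G and C made up 74.0% of the Adrb1 window and 66.0% of the Adra2b window, against a median of 52.4%. These matches describe the letters only, and no binding was measured in this study.

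Markers of cell types varied with Adrb1 across the mice. The glutamatergic neuron marker Slc17a7 averaged 829, 966 and 1131 CPM in less anxious, anxious and more anxious mice, and Slc17a6 85.5, 72.2 and 72.9 CPM. Their log2 changes between more and less anxious mice had opposite signs, 0.44 (SE 0.17) and -0.08 (SE 0.27). The summed level of both, which was mostly Slc17a7, ran from 763 to 1155 CPM in less anxious, 964 to 1103 CPM in anxious and 985 to 1466 CPM in more anxious mice. Across the 11 mice Adrb1 had r = 0.832 with this sum, r = 0.645 with the neuronal markers, r = -0.652 with the choroid plexus markers and r = -0.640 with the summed astrocyte markers Aqp4, Aldh1l1, Gja1 and Slc1a3, where all points share the same libraries. The astrocyte sum was 945 to 1165 CPM in less anxious and 711 to 873 CPM in more anxious mice, without overlap. Sums of 4 further lists also did not overlap and were lower in more anxious mice. They ran from 5.17 to 9.88 CPM in less anxious and 2.09 to 4.85 CPM in more anxious mice for choroid plexus, from 80.4 to 122 and 54.7 to 75.0 CPM for endothelium, from 88.3 to 105 and 76.6 to 88.1 CPM for microglia, and from 2.08 to 3.63 and 1.11 to 1.64 CPM for pituitary. Of all single genes tested, 3.83% were lower in more than in less anxious mice without overlap. No such share was counted for sums of genes. On average, the choroid plexus genes Kcnj13 (0.460 against 4.20 CPM) and Ttr (2.13 against 2.66 CPM) were lower in more than in less anxious mice. Folr1 of that list was higher (0.311 against 0.244 CPM). In the pituitary list Prl (0.0703 against 1.06 CPM) and Gh (0.0813 against 1.05 CPM) were lower, but Pomc was higher (1.23 against 0.917 CPM). The r of Adrb1 was -0.282 with endothelium, -0.358 with microglia and -0.284 with pituitary. With the GABA neuron markers Gad1, Gad2 and Slc32a1 the r of Adrb1 was -0.489. All 3 had lower estimates in more than in less anxious mice (median log2 change -0.172). Their sum overlapped, with 631 to 760 CPM in less anxious and 511 to 779 CPM in more anxious mice. The 4 amygdala markers also all had lower estimates in more than in less anxious mice (median log2 change -0.333), and none passed the adjusted threshold in edgeR. The sum of these 4 overlapped, with 95.8 to 116 CPM in less anxious and 50.8 to 111 CPM in more anxious mice, and the r of Adrb1 with it was -0.365. None of the 2 glutamatergic, 3 neuronal and 4 astrocyte markers passed the adjusted threshold in edgeR between these groups, where the smallest adjusted p was 0.188 (Slc1a3, log2 change -0.50, SE 0.12). Per 1000 CPM of Slc17a7 and Slc17a6, Adrb1 stood at 13.3 ± 1.26 in less anxious, 13.2 ± 0.751 in anxious and 14.7 ± 1.92 in more anxious mice (SD, n = 3, 4 and 4). On this scale the groups overlapped, with 11.9 to 14.2 in less anxious and 12.1 to 16.7 in more anxious mice, where mouse 9 had the lowest value. Per 100 CPM of the neuronal marker Rbfox3 the values also overlapped, with 5.60 to 7.83 in less anxious and 6.99 to 8.45 in more anxious mice. The part of cell composition in the difference was not tested.

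**Figure D2:**
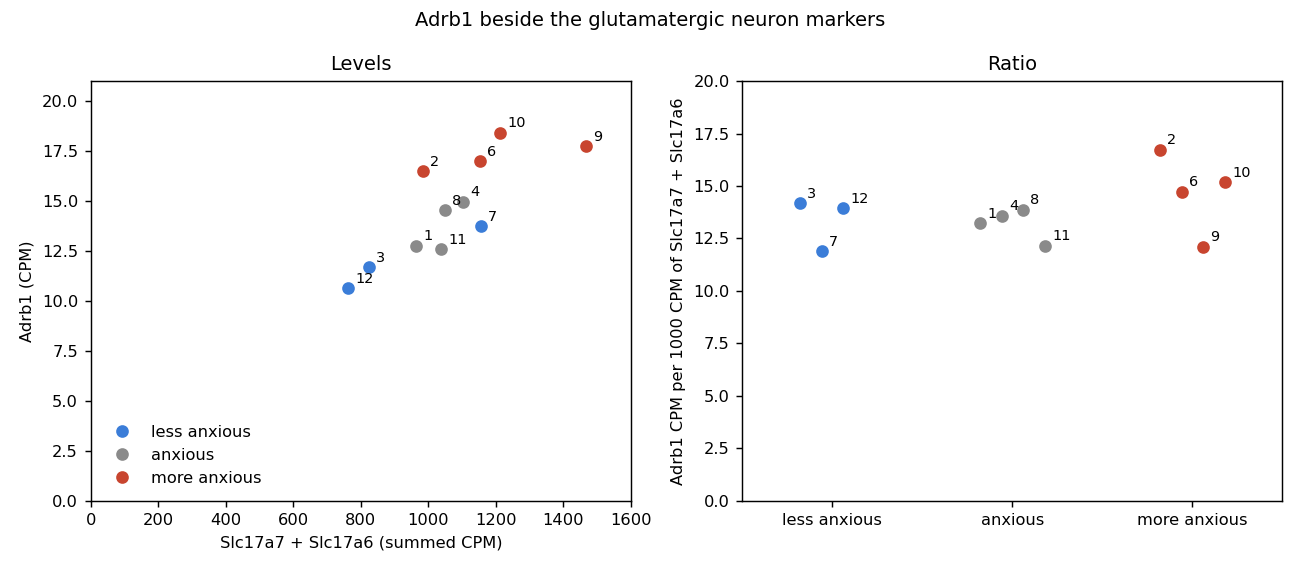
Adrb1 beside the glutamatergic neuron markers in the 11 grouped mice. On the left, Adrb1 in CPM is plotted against the summed CPM of Slc17a7 and Slc17a6; on the right, Adrb1 per 1000 CPM of that sum by group. Points are mice with their numbers, and the ratio overlaps between groups, from 11.9 to 14.2 in less anxious and 12.1 to 16.7 in more anxious mice.

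Among the alpha 1 receptors, Adra1a (ENSMUSG00000045875, chr14:66635251-66771168, plus strand), the subtype that drugs for an enlarged prostate block, was at 3.24, 4.63 and 4.96 CPM in the less anxious mice, at 3.00, 3.37, 3.67 and 3.91 CPM in the anxious mice and at 2.51, 2.59, 3.38 and 3.70 CPM in the more anxious mice. Mice 7 and 12, both less anxious, had the highest levels of all, while mouse 3 of that group lay within the range of the other groups. The log2 change from less to more anxious mice was -0.52 (SE 0.21; edgeR unadjusted p = 0.0269, adjusted p = 0.481). Its level across mice had r = -0.792 with the summed neuronal markers, r = 0.657 with the astrocyte markers, r = 0.724 with the choroid plexus markers and r = -0.707 with Adrb1, and the part of these markers in its values was not tested.

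Adra1b (ENSMUSG00000050541, chr11:43774606-43901210, minus strand), an alpha 1 subtype also found in liver and heart, ran from 4.72 to 7.76 CPM over the 11 mice, with the highest levels in mouse 9 (more anxious) and mouse 7 (less anxious), and its groups overlapped. Its change from less to more anxious mice was 0.11 on the log2 scale (SE 0.19; edgeR unadjusted p = 0.572, adjusted p = 0.926). This value rests on single mice, since it was -0.10 without mouse 9 and 0.32 without mouse 7. Across mice Adra1b had r = 0.701 with the summed glutamatergic markers, so that relation was not seen for Adrb1 alone, and the part of these markers in its values was not tested.

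Adra1d (ENSMUSG00000027335, chr2:131545850-131562283, minus strand), a subtype best known from the smooth muscle of vessels, varied most among the receptors with over 1 CPM. It had 1.76 CPM in mouse 10 and 8.51 CPM in mouse 2, both of them more anxious, a 4.85-fold range within 1 group. The less anxious mice had 2.58, 2.85 and 5.53 CPM, and the anxious mice 3.13, 3.21, 5.03 and 7.54 CPM. The coefficient of variation over the 11 mice was 46.5%, higher than in 93.4% of the 3332 genes whose mean was within 2-fold, where the median was 19.0%. The change from less to more anxious mice was 0.40 on the log2 scale with an SE of 0.51 (edgeR unadjusted p = 0.449, adjusted p = 0.888). It was 0.043 without mouse 2, 0.24 without mouse 12, 0.69 without mouse 10 and 0.81 without mouse 7. Across mice its level had r = -0.739 with the summed thalamic markers Tcf7l2, Lef1 and Rora, r = -0.653 with the oligodendrocyte markers and r = -0.623 with the mural cell markers, and the part of tissue composition in its spread was not tested. The gene is overlapped by the antisense gene Gm14285, to which 2 to 23 reads were assigned, and whether the counting used the strand is not given in the sources used here, so the level of Adra1d is less certain.

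Among the alpha 2 receptors, Adra2a (ENSMUSG00000033717, chr19:54044151-54048982, plus strand), the main subtype on noradrenergic terminals, had the highest counts. It was at 16.1, 23.1 and 28.2 CPM in the less anxious, 20.8, 22.8, 27.9 and 32.4 CPM in the anxious and 20.5, 23.8, 30.3 and 31.9 CPM in the more anxious mice. Each group overlapped with the others. The log2 change from less to more anxious mice was 0.16 (SE 0.17; edgeR unadjusted p = 0.366, adjusted p = 0.854), and -0.01 when mouse 12, the lowest, was left out. Its level had r = -0.666 with the mural cell markers and r = -0.60 with the striatal markers, whose part in it was not tested.

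Adra2c (ENSMUSG00000045318, chr5:35278319-35281763, plus strand), which shares the presynaptic role, was the least variable receptor, with a coefficient of variation of 14.7%. It ran from 13.3 to 17.7 CPM in the less anxious, 14.3 to 18.5 CPM in the anxious and 12.8 to 20.2 CPM in the more anxious mice. The log2 change from less to more anxious mice was 0.15 (SE 0.16; edgeR unadjusted p = 0.346, adjusted p = 0.846), and -0.01 without mouse 9, the highest. Across mice Adra2c had r = 0.769 with Adra1b and r = 0.686 with Adra2a, the highest values of r among the receptor pairs, and r = 0.602 with the glutamatergic markers, whose part in it was not tested.

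Adra2b (ENSMUSG00000058620, chr2:127363208-127367221, plus strand), an alpha 2 subtype of vessels and of few brain regions, was close to the limit of detection with 5 to 37 reads per grouped mouse. It was at 0.194, 0.679 and 0.965 CPM in the less anxious, 0.135, 0.363, 0.444 and 0.574 CPM in the anxious and 0.181, 0.273, 0.300 and 0.446 CPM in the more anxious mice. As for Adra1a, mice 12 and 7 were the highest, and mouse 3 lay among the other groups. The log2 change from less to more anxious mice was -1.03 with an SE of 0.54 (edgeR unadjusted p = 0.0753, adjusted p = 0.626), and it was -0.56 without mouse 12 and -1.52 without mouse 3. The difference was not distinguishable from the spread between mice. Its level had r = 0.808 with the summed mural cell markers (Acta2, Myh11, Pdgfrb, Rgs5) and r = 0.708 with the striatal markers. With the amygdala markers r was 0.691 and with the oligodendrocyte markers 0.677. The part of these markers in its level was not tested.

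**Figure D3:**
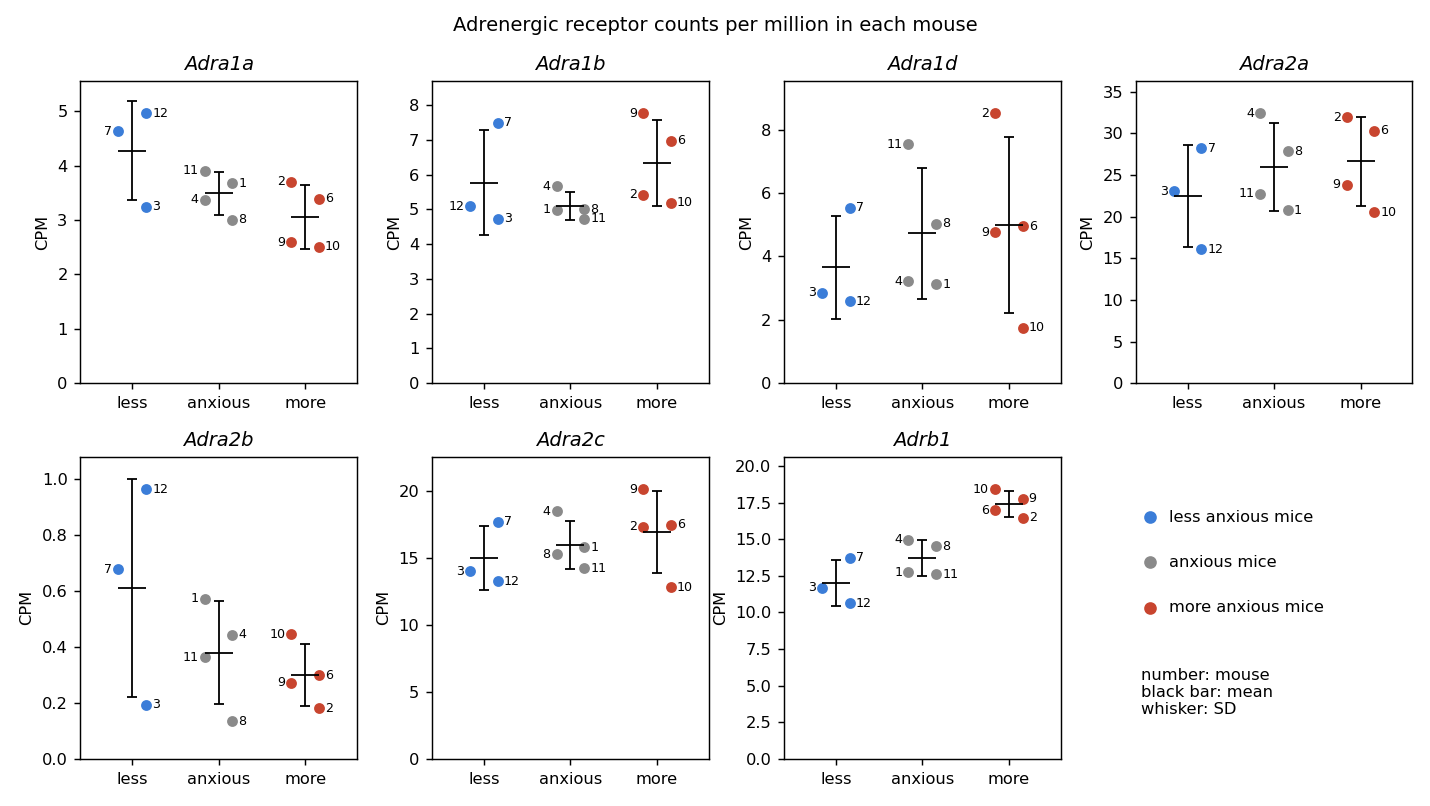
Level of each receptor in CPM in the 11 grouped mice by anxiety group, each panel with its own axis from 0. Points are mice with their numbers, black bars are means and whiskers are SD. Adrb1 is the panel in which all 4 more anxious mice (16.5 to 18.4) lie above the rest; in the other 6 panels the groups overlap.

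No receptor passed the adjusted threshold in edgeR in any of the 4 group tests. Their background shares of genes called at an adjusted p under 0.05 were 0.00742% over the 3 groups, 0.0445% for more against less anxious, 0.00371% for anxious against less anxious and 0% for more anxious against anxious. At an unadjusted edgeR p under 0.05, Adrb1 was the single receptor of 7 in the test over the 3 groups (6.41% of all genes), Adrb1 and Adra1a were the 2 of 7 between more and less anxious mice (8.81%), 0 of 7 passed between anxious and less anxious mice (4.70%) and Adrb1 alone passed between more anxious and anxious mice (4.67%). The median log2 change of the 7 between more and less anxious mice was 0.153, against 0.00905 over all genes tested, with 5 of 7 higher. The 5 with higher estimates were Adrb1, Adra1b, Adra1d, Adra2a and Adra2c, and the estimates of Adra1a and Adra2b were lower.

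**Figure D4:**
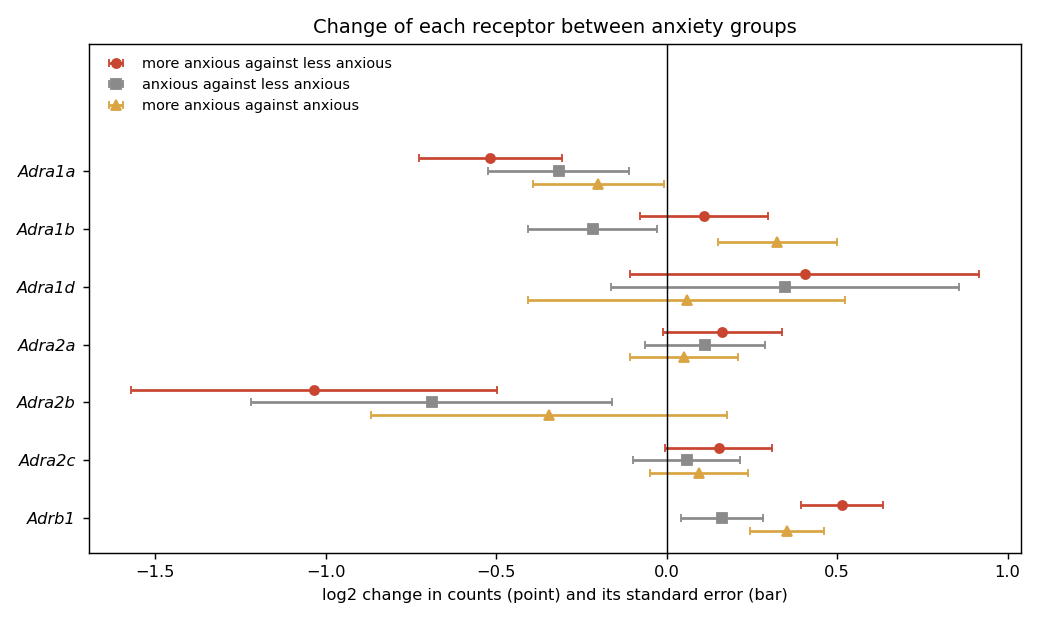
Log2 change of each receptor between anxiety groups (points) with its standard error (bars) from edgeR with PC1 as covariate. The estimate of Adrb1 for more against less anxious mice is 0.52 with a bar of 0.12, and the bars of Adra1d and Adra2b, with SE of 0.51 and 0.54, are the widest.

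To ask whether the receptors followed behavior itself, each was tested against the 7 measures over all genes, giving 49 relations of receptor and measure. No receptor passed the adjusted threshold in edgeR for any measure. The background shares called at an adjusted p under 0.05 were 0.00742% for time in the light, 0% for entries, for open-arm time and for lit distance, and 0.015%, 0.0111% and 0.0223% for the box:zone ratio of the social test at 3, 5 and 10 min. At an unadjusted p under 0.05, 1 of the 49 relations was found, that of Adra1a with the ratio at 3 min, where 1 of 7 receptors compared with 7.62% of all genes. For the other measures 0 of 7 receptors stood against 3.56% of genes for time in the light, 7.06% for entries, 5.90% for open-arm time, 5.84% for lit distance and 6.52% and 7.98% for the ratio at 5 and 10 min.

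Adra1a had a negative slope on the box:zone ratio of the first 3 min, which mouse 4 lacks. The study describes the box as direct and the zone as distant contact with an unfamiliar mouse. The formula of the ratio is not given in the sources used here. The mice with the lowest ratios, 7 (0.236) and 12 (0.691), had the highest Adra1a of 4.63 and 4.96 CPM, and those with the highest ratios, 9 (1.84), 3 (1.70) and 10 (1.45), had 2.59, 3.24 and 2.51 CPM. The slope was -0.26 on the log2 scale per SD of the ratio (SE 0.08; edgeR unadjusted p = 0.00523, adjusted p = 0.427), and the adjusted p in DESeq2 was 0.0908, so neither tool called it. Over 10 mice Pearson's r was -0.821 (permutation p = 0.00434) and Spearman's rho was -0.818 (permutation p = 0.00581), each as 1 of 49 relations. Without mice 9 and 3, the farthest from the median ratio, r was -0.851. At 5 and 10 min the relation had r = -0.537 and r = -0.427, and with open-arm time r = 0.590.

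For Adrb1, the measure with the smallest p was the distance in the light. Its slope was -0.11 on the log2 scale per SD (SE 0.07; edgeR unadjusted p = 0.115, adjusted p = 0.859), with r = -0.486 (permutation p = 0.130) and rho = -0.518 (permutation p = 0.107) over 11 mice. Mouse 6, labeled more anxious, had the largest share of its distance in the light of the 11 mice, 41.9%, together with 17.0 CPM of Adrb1, and without it the slope was -0.21 (edgeR adjusted p = 0.230). It also had the largest share of time in the light (46.6%) and on the open arms (29.2%) of the 11 mice. Without mice 6 and 2 r was -0.809. The relation was smaller under other choices, with a slope of -0.08 without mouse 9, and with mouse 5 included the slope was -0.07, r was -0.271 and rho was -0.294. Across mice Adrb1 had r = -0.689 with PC2, as computed here from these counts. On this PC2 mouse 6 was at 0.324, above the anxious mice 1 (-4.92) and 11 (-2.98), so its label departs from the order computed here.

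**Figure D5:**
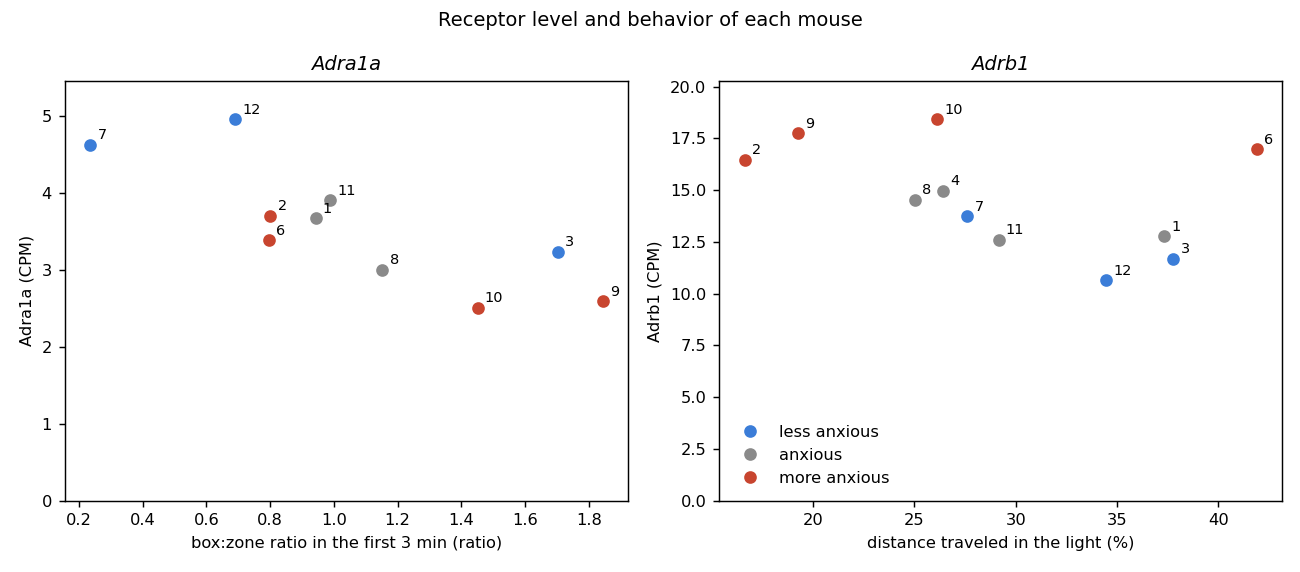
Receptor level in CPM against behavior in single mice. On the left, Adra1a against the box:zone ratio of the first 3 min of the social test (10 mice); on the right, Adrb1 against the percentage of distance traveled in the light (11 mice). Points are mice with their numbers, colored by group. In the Adra1a panel mice 7 and 12 are at 4.63 and 4.96 CPM and mice 10 and 9 at 2.51 and 2.59 CPM, and in the Adrb1 panel mouse 6 lies apart with 41.9% of distance in the light.

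The smallest unadjusted edgeR p of the remaining receptors was 0.0510, for Adra2b with the ratio at 5 min (slope -0.50, SE 0.24; r = -0.480, permutation p = 0.133; rho = -0.382, permutation p = 0.246). Its r was -0.745 without mice 3 and 2, the farthest from the median ratio, but -0.106 with mouse 5 included and the 2 farthest mice, then 3 and 8, left out, and the slope was -0.33 without mouse 12. For the ratio at 5 and at 10 min the slopes of all 7 receptors were below 0, with medians of -0.083 and -0.113 on the log2 scale per SD, where the receptors share their mice. Over all genes tested the medians were -0.00877 and -0.0115, and 53.3% and 54.0% of genes had slopes below 0. At 5 min the slopes of Adrb1 and Adra2a turned above 0 with PC1 as covariate, and that of Adrb1 also with ranks of the ratio and without mouse 2 or mouse 3. At 10 min the slope of Adra2a did so with PC1 as covariate and that of Adrb1 without mouse 3.

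The genes around the receptors were examined by lists, which were chosen with earlier results of these data known. In none of the 9 lists did a gene pass the adjusted threshold in edgeR in the group tests. Of the 11 genes for synthesis, storage, uptake and breakdown of noradrenaline, Ddc, the aromatic amino acid decarboxylase, had a log2 change between more and less anxious mice of -0.72 (SE 0.25; edgeR unadjusted p = 0.0140, adjusted p = 0.415) and Dbh, which makes noradrenaline from dopamine, had one of 2.09 (SE 0.80; edgeR unadjusted p = 0.0275, adjusted p = 0.484). Dbh was at 2.08 ± 2.51 CPM (SD) in more anxious mice, with a highest value of 5.80 CPM, so its spread within that group was as large as its mean. The median change of this list was 0.13, with 6 genes of 11 higher.

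Among the G proteins, Gnai2, an inhibitory subunit that couples to alpha 2 receptors, had the smallest p of the lists. It was at 135 ± 15.5 CPM in less anxious, 144 ± 34.1 CPM in anxious and 280 ± 64.9 CPM in more anxious mice (SD, n = 3, 4 and 4), with a log2 change of 0.997 between more and less anxious mice (SE 0.183; edgeR unadjusted p = 0.000156, adjusted p = 0.103), and Gnai3 of the same list had a change of -0.18 (SE 0.10). The study names Gnai2 among its changed genes from these same mice, so this value is not independent evidence. The stimulatory subunits Gnas and Gnal, which couple to Adrb1, had changes of 0.09 (SE 0.11) and -0.27 (SE 0.18). Of the 11 genes of the Gq arm of alpha 1 signaling, Itpr1, the calcium release channel, had a change of -0.51 (SE 0.19; edgeR unadjusted p = 0.0240, adjusted p = 0.469). All 5 striatal markers were estimated lower than in less anxious mice, with medians of -1.27 in anxious and -0.818 in more anxious mice. None of the 5 passed the adjusted threshold in edgeR. In less anxious, anxious and more anxious mice, Itpr1 averaged 283, 179 and 195 CPM and Gnal 224, 168 and 183 CPM. The part of striatal tissue in these changes was not tested.

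Downstream of cyclic AMP control, 3 of 9 adenylyl cyclases had higher and 6 lower estimates, with a median of -0.194, led by Adcy5 at -0.39 (SE 0.14; edgeR unadjusted p = 0.0135, adjusted p = 0.410) and Adcy9 at -0.42 (SE 0.19; edgeR unadjusted p = 0.0411, adjusted p = 0.544). Like the striatal markers, Adcy5 was highest on average in less anxious mice (239 CPM, against 178 in anxious and 184 in more anxious mice). The part of striatal tissue in its change was not tested. Of the 8 genes of protein kinase A, Prkar2a was at -0.32 (SE 0.13) and Prkaca at 0.17 (SE 0.08), and of the 4 genes of phosphodiesterase 4, which breaks down cyclic AMP, Pde4d was at -0.29 (SE 0.19) and Pde4a at 0.14 (SE 0.10). Among the 7 receptor kinases and arrestins, which switch off activated receptors, Arrb2 was at 0.33 (SE 0.10; edgeR unadjusted p = 0.00389, adjusted p = 0.294) and Arrb1 at -0.35 (SE 0.10; edgeR unadjusted p = 0.00472, adjusted p = 0.313), so that the 2 arrestins had opposite signs.

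By likeness of level across the 11 mice, among 15891 genes with a mean of at least 1 CPM, the genes closest to Adrb1 were Insyn1 (r = 0.957), Foxp4 (r = 0.955) and Mex3d (r = 0.938), and 19 genes had r over 0.9 with it. The closest to Adra1a were Crebl2 (r = 0.942), Pdgfra (r = 0.904) and Pard3 (r = 0.886), to Adra1b Mapk8ip1 (r = 0.969), Clstn1 (r = 0.936) and Ctbp1 (r = 0.920), and to Adra1d Adcy6 (r = 0.965), Col6a1 (r = 0.921) and Abca8a (r = 0.910). Adra2a was closest to BC051226 (r = 0.918), Zfp219 and Usb1 (r = 0.916 each), and Adra2c to 4931414P19Rik (r = 0.949), Pcyox1l (r = 0.901) and Cbfa2t3 (r = 0.869). These values are descriptions over 11 mice that share their libraries, picked as the highest of many genes, and Adra2b was below 1 CPM and was not compared.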

How the data were processed

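Single-end reads of 75 bp came from stranded mRNA libraries. The authors quantified transcripts with Salmon, collapsed the values per gene through tximport, and used STAR alignments (mm10) to judge quality. What they deposited is a table of estimated counts that are not normalized and are all whole, with 47729 genes in rows and 12 mice in columns. Tool versions, the annotation release and the use of strand are not given in the sources used here. The members and lists were chosen with earlier results of these data known. Genes with at least 10 reads in total were tested with edgeR 4.0.16 in R 4.3.3 (quasi-likelihood, robust, TMM factors), with PC1 of the variance-stabilized counts as covariate for the 11 grouped mice and without a covariate for the behavior measures, and p-values were adjusted by Benjamini-Hochberg over all genes. DESeq2 1.42.0 was run as an alternative. The named genes were the receptors, of each list the called members or otherwise the 2 with the smallest unadjusted p, and the 3 genes most like each receptor; some listed genes are not reported here. Gm14285, Phox2a, Slc6a2, Th and Slc1a3 were named after their values were seen. Log2 CPM used a prior count of 2, and correlations were tested with 100000 permutations, two-sided. No receptor shared a run of 31 bases with another receptor's transcripts in GENCODE M21, and the share of such runs found in other genes' transcripts on the same strand was at most 2.03% (Adrb1). On the opposite strand, Adra1d shared 118 of its 1869 runs with Gm14285, which matters if the counting did not use the strand. On simulated data with 200 genes changed by a log2 of 2, the group test recovered 187 with 24 false calls and the open-arm test 193 with 7 false calls; changes as small as those of the receptors were not simulated.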

Additional observations from a re-analysis of the deposited data

Results flagged for a closer look

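The library of mouse 5 stood apart as a whole and was left out by the study as an outlier. It had 23768 genes with a read, against 26378 to 28196 in the 11 grouped mice, and its summed choroid plexus (1.34 CPM) and pituitary markers (0.975 CPM) were below their ranges of 2.09 to 9.95 and 1.10 to 55.3 CPM. Adra2b in mouse 5, which has no group and entered no comparison, was at 1.58 CPM (52 reads), above the 0.135 to 0.977 CPM of the 11 grouped mice on the same scale. The mural cell markers, with which Adra2b varied in the grouped mice, were at 134 CPM in mouse 5, within their range of 95.7 to 186 CPM. Adra1d was below the range of the grouped mice in mouse 5, at 1.46 CPM against 1.76 to 8.48 CPM, and the other 5 receptors were within it. In the groups of 4 mice, 0 of 14 combinations of receptor and group had a mouse that stood apart by Dixon's criterion, which chance meets in about 1 of 20.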

How the results depend on the processing

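The alternatives covered size factors, count filters, DESeq2, PC1, the coding of the groups, ranks, prior count, mouse 5, coding length and leaving out single mice. The number of receptors called rose from 0 to 1, Adrb1, with DESeq2 over the 3 groups and between more and less anxious mice (log2 change 0.51), and was 0 elsewhere. With edgeR the change of Adrb1 between more and less anxious mice was 0.44 to 0.60 with each mouse left out (edgeR adjusted p 0.165 to 0.540). Changes that turned sign were those of Adra1b (-0.096 without mouse 9, -0.096 to 0.32 in all), Adra2a (-0.011 without mouse 12, -0.011 to 0.35 in all) and Adra2c (-0.013 without mouse 9, -0.013 to 0.27 in all). The slope of Adra1a on the ratio at 3 min was -0.29 to -0.22 with each mouse left out, -0.24 with mouse 5 and -0.36 with PC1 as covariate. The r of Adrb1 with distance in the light was -0.271 with mouse 5. Per kb of coding length the levels were 18.1 for Adra2a, 11.7 for Adra2c, 10.4 for Adrb1, 3.71 for Adra1b, 2.53 for Adra1a and 0.305 CPM for Adra2b. Genes called over the 3 groups numbered 2 in edgeR, 9 without a filter, 24 with group order as a number, 0 with at least 1 CPM in 3 mice or without PC1, 205 in DESeq2 and 0 to 4 with each mouse left out. Between more and less anxious mice they numbered 12, and 25, 0, 3 and 300 without a filter, with 1 CPM in 3 mice, without PC1 and in DESeq2, and 0 to 23 with each mouse left out. The cause of these shifts was not tested. A paired analysis did not apply, because the groups hold different mice with 1 library each. Adra2b had 5 to 37 reads per mouse, and the part of counting error in its spread was not tested. Each group held 3 or 4 mice.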
